A study of Mus musculus with 6 samples.

Results

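*Vegfa*, *Vegfb*, *Vegfc*, and *Pgf* encode ligands of the vascular endothelial growth factor (VEGF) family, *Flt1*, *Kdr*, and *Flt4* encode their receptor tyrosine kinases, and *Angpt1* and *Angpt2* encode angiopoietins. These 9 genes were taken by name from the 55401 genes of the exonic count table, each through the Ensembl identifier that the GRCm38 annotation of GENCODE pairs with its symbol. All 9 had enough counts to be tested, among 22318 genes tested in all. RNA was sequenced in bulk, after poly(A) selection, from primary Schwann cells (SCs), the glia that ensheathe peripheral axons, grown from dorsal root ganglia (DRGs) of adult mice. The 3 WT cultures carried no labelled mutation. The 3 *Plxnb1-/-* cultures came from mice labelled PB1 -/-, whose allele carries a gene trap with a transmembrane segment, lacZ, and neo in *Plxnb1*, the gene of the semaphorin receptor Plexin-B1. The labels and the RNA-seq methods of the study call the controls WT. Its general mouse methods name WT and *Plxnb1* +/- littermates alike as controls, and a heterozygous control culture could not be told apart by the labels. The sources give neither the sex of the mice nor an age other than adult. All 6 cultures were grown in 2 µM forskolin, which raises cyclic AMP, with 10 nM neuregulin and 10% serum. Fibroblasts were depleted with an antibody to *Thy1*, and cells of passages 3 to 5 with a stated purity above 80% were used. The sources name neither an injury nor low oxygen for these cultures.

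VEGF-A is the main growth signal for blood vessels. It acts through KDR, the chief signaling receptor on endothelium, while FLT1 binds VEGF-A, VEGF-B, and placental growth factor tightly and is best known as a decoy. VEGF-C acts through FLT4 on lymphatic vessels. Angiopoietin 1 activates the receptor TEK (also called TIE2), which steadies vessels, and angiopoietin 2 opposes it in many settings. *Vegfa* is also a classic target of the hypoxia-inducible factors (HIFs). In injured nerve, new vessels precede the SCs that cross the gap and serve them as tracks. The genes therefore code for signals that pass between SCs and vessels, and the comparison of genotypes asks whether their transcripts depended on Plexin-B1 in cultured SCs.

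The knocked-out gene followed the labels. *Plxnb1* was at 61.7, 45.4, and 96.4 CPM in WT replicates 1, 2, and 3 and at 13.1, 16.6, and 18.5 CPM in *Plxnb1-/-* replicates 1, 2, and 3, and it fell by 2.08 on the log2 scale (SE 0.25, edgeR adjusted p = 0.0449). Its log2 fold change was between -2.41 and -1.74 over 18 alternative settings, but it passed the thresholds used for calls below in only 9 of them. CPM here divide each count by the library total, adjusted with trimmed-mean (TMM) factors. Total counts per library lay between 59252048 and 77280964, so that 3 counts, taken as the floor of detection, were at most 0.0506 CPM. This floor covers counting error only, and every member had at least 150 counts in every library. The 10 SC markers together lay between 2639 and 3598 CPM over the 6 cultures. WT replicate 2 stood apart, with the lowest value of 9 of 10 SC markers and the highest of 6 of 8 fibroblast and 11 of 14 blood endothelium markers.

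The sequences in front of 3 of the genes are printed because *Vegfa* and *Vegfb* had the largest and the smallest genotype difference of the 4 member VEGF ligands, and because *Flt1* was the receptor with the highest level. Each is the 250 bases before the gene start in RefSeq on GRCm38.p6, 5′ to 3′ in the direction of the gene. 7 of the 9 members had such a window, and the windows shown touch no annotated exon. Capitals mark the GC box GGGCGG and the cyclic AMP response element TGACGTCA, searched on both strands with overlapping matches kept. The HIF core ACGTG was searched in the same way.
Vegfa: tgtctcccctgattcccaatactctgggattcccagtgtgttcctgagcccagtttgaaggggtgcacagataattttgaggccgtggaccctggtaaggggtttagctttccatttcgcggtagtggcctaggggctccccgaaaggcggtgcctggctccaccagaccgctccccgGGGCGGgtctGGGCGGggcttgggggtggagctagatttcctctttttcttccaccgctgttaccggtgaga
Vegfb: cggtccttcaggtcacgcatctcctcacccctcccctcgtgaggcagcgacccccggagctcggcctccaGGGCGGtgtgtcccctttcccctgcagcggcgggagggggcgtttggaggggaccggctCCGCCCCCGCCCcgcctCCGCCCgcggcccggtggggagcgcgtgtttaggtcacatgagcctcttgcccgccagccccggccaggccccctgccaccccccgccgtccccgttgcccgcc
Flt1: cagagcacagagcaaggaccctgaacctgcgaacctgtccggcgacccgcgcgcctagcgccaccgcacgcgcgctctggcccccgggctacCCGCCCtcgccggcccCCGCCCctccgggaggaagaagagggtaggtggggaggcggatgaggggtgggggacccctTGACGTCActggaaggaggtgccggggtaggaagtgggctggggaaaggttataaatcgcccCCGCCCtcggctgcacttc
The *Vegfa* window lies at chr17:46032378-46032627 on the minus strand, has a GC content of 59.2%, and holds 2 GC boxes close together. The *Vegfb* window at chr19:6987652-6987901, also on the minus strand, has a GC content of 76.4% and holds 4 GC boxes, of which a pair lies end to end. The *Flt1* window at chr5:147726012-147726261, on the minus strand too, holds 3 GC boxes and 1 cyclic AMP response element that begins 81 bases before the start. None of the 3 windows shown holds the HIF core. Only these 250 bases were searched, so a HIF core further from the start would not have been seen. RefSeq gives *Vegfa* a second start, whose window at chr17:46025164-46025413 touches an annotated exon and is not shown, and it holds 1 HIF core and 1 GC box. Of 32851 RefSeq windows of this length, 32.7% held a GC box, 16.6% the HIF core, and 1.55% the cyclic AMP response element. A match is a run of letters and was not tested as a binding site.

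Levels were compared between genes per kilobase (kb) of merged exons, since the genes differ in length. The authors' aligner does not span introns, so reads over exon junctions may be missing, more so in genes of many short exons. *Vegfa* has 8 merged exons in 4285 bases, *Vegfb* 7 in 1605, and *Kdr* 29 in 9030. How far this shifts levels between genes was not tested. *Vegfa* was the highest of the 16 ligands and receptors of both families in WT cultures, at 49.8 ± 6.87 CPM per kb (SD, n = 3). *Vegfb* followed among the members at 8.61 ± 0.657, ahead of *Angpt1* at 4.97 ± 0.304 CPM per kb. *Angpt2* (3.29 ± 0.118), *Pgf* (2.97 ± 0.268), and *Vegfc* (2.87 ± 0.183 CPM per kb) formed a middle group in which neighbors overlapped. The receptors were at the lower end, with *Flt1* at 1.36 ± 0.158 and *Flt4* at 1.09 ± 0.141 CPM per kb, which overlapped, and *Kdr* at 0.373 ± 0.0631. In WT cultures, *Vegfa* made up 74.5%, 79.7%, and 74.6% of the summed per-kb level of the 5 VEGF ligands (*Vegfd* included). The share was 73.9%, 74.5%, and 67.6% in *Plxnb1-/-* replicates 1, 2, and 3, so that the genotypes met at about 74.5%.

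The order of the members was the same in *Plxnb1-/-* cultures except that *Vegfc* (2.55 ± 0.136 CPM per kb, SD, n = 3) and *Pgf* (2.39 ± 0.343) changed places, and these overlapped in both genotypes. *Vegfa* was apart from the co-receptor *Nrp1* in WT cultures. In *Plxnb1-/-* cultures its range of 29.6 to 40.0 CPM per kb reached down into that of *Nrp1*, 31.5 to 32.4.

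**Figure D1:**
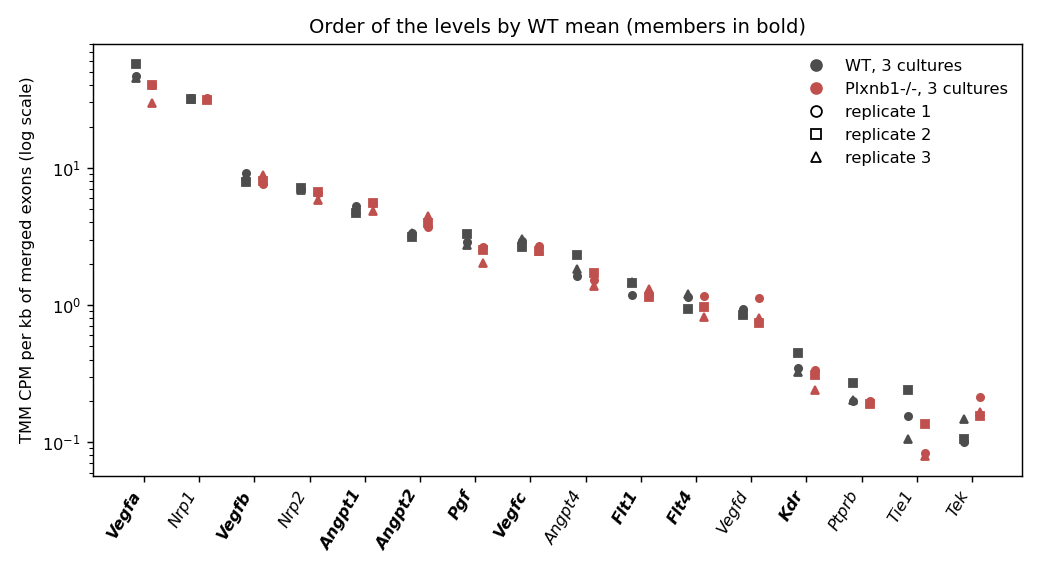
Level of the 9 members (bold) and 7 related genes as CPM per kb of merged exons on a log axis, with 1 symbol per culture, grey for WT and red for *Plxnb1-/-*. *Vegfa* and *Nrp1* lie far above the others, and the angiopoietin receptors *Tek* and *Tie1* lie at the bottom.

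Among the VEGF ligands, *Vegfa* (chr17:46016993-46032369, minus strand) showed the largest genotype difference of all members. It was at 199, 247, and 194 CPM in WT replicates 1, 2, and 3 and at 171, 172, and 127 CPM in *Plxnb1-/-* replicates 1, 2, and 3. Every *Plxnb1-/-* culture was below every WT culture, and the extremes were WT replicate 2 and *Plxnb1-/-* replicate 3. The mean was 213 ± 29.4 against 156 ± 25.8 CPM (SD, n = 3 each), a fitted fold of 0.733 and a log2 fold change of -0.45 (SE 0.13, 95% interval -0.73 to -0.16). In edgeR's quasi-likelihood test its adjusted p was 0.273 (0.00646 before adjustment), so it was not called. DESeq2, the tool that the study names for its own comparison, called it at an adjusted p of 0.0194 with the same fold change. *Vegfa* is a gene that the study itself singled out of these libraries, so its direction is not independent evidence. Because the libraries are bulk RNA, fewer cells of a type and less RNA per cell cannot be told apart for this and the other genes.

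*Pgf* (placental growth factor, chr12:85166635-85177790, minus strand) had the next largest difference of the ligands. It was at 8.41, 9.50, and 7.99 CPM in WT replicates 1, 2, and 3 and at 7.72, 7.31, and 5.83 CPM in *Plxnb1-/-* replicates 1, 2, and 3. The genotypes did not overlap, but the lowest WT and the highest *Plxnb1-/-* culture were close to each other. The log2 fold change was -0.31 (SE 0.12, 95% interval -0.57 to -0.05, edgeR adjusted p = 0.319).

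*Vegfc*, the lymphatic ligand, and *Vegfb*, a ligand of FLT1 linked to fat and muscle metabolism, overlapped between genotypes. *Vegfc* (chr8:54077606-54187096, plus strand) was at 7.23, 6.53, and 7.36 CPM in WT and at 6.62, 6.04, and 6.04 CPM in *Plxnb1-/-* replicates 1, 2, and 3. Only WT replicate 2 lay within the *Plxnb1-/-* range, and the log2 fold change was -0.18 (SE 0.09, edgeR adjusted p = 0.399). *Vegfb* (chr19:6982473-6987651, minus strand) was at 14.7, 12.6, and 14.1 CPM in WT and at 12.2, 12.8, and 14.2 CPM in *Plxnb1-/-* replicates 1, 2, and 3. The cultures of both genotypes were mixed over the whole range. The log2 fold change was -0.08 (SE 0.08, 95% interval -0.27 to 0.11, edgeR adjusted p = 0.703), an interval that overlaps that of *Vegfa*.

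**Figure D2:**
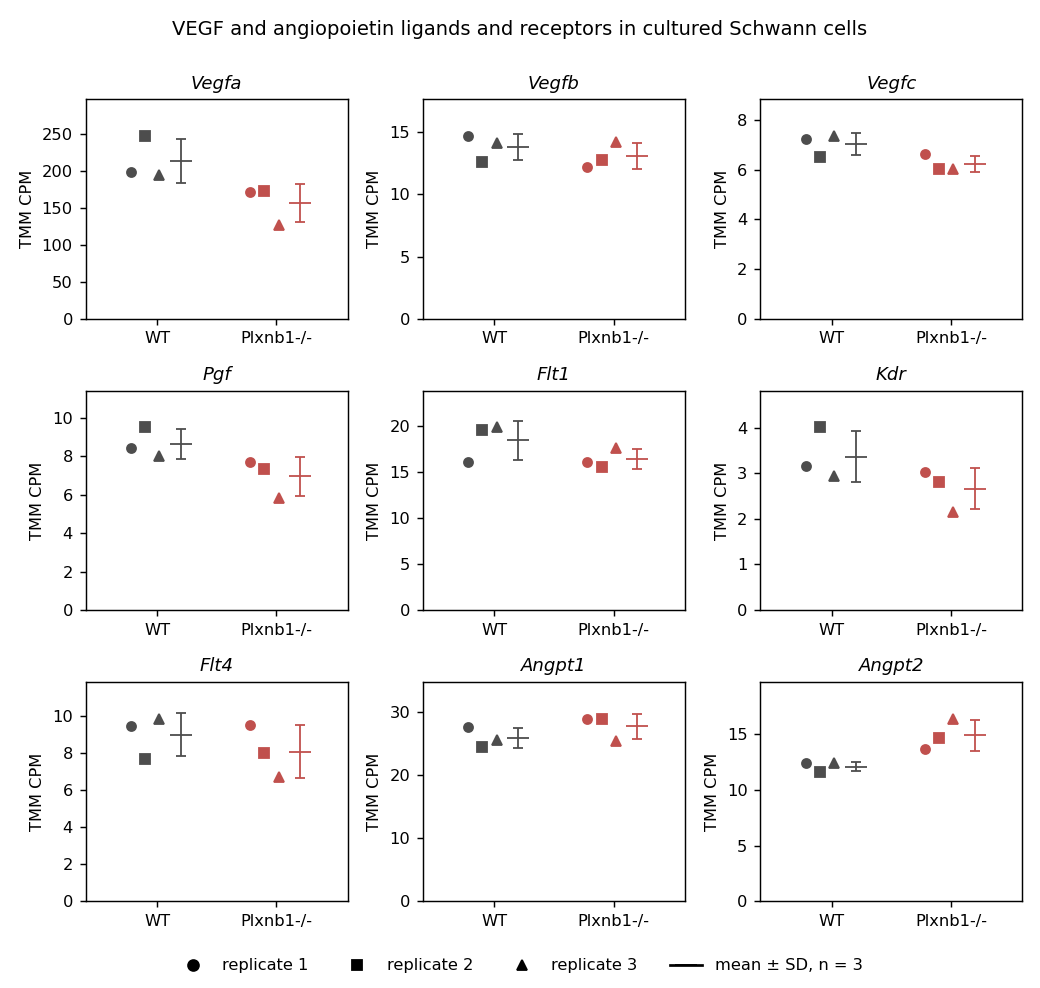
TMM-scaled CPM of each member on a linear axis that starts at 0, with 1 symbol per culture and the mean ± SD of each genotype (n = 3) beside it. *Vegfa* and *Pgf* are lower in all *Plxnb1-/-* cultures, *Angpt2* is higher in all of them, and the other 6 members overlap.

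*Vegfd*, the remaining VEGF ligand of the mouse and a lymphatic growth factor, lay between 1.78 and 2.73 CPM over all cultures. Its log2 fold change of 0.02 (95% interval -0.37 to 0.41, edgeR adjusted p = 0.968) changed sign without WT replicate 2 and without *Plxnb1-/-* replicate 1, where it was as low as -0.19.

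All 3 VEGF receptors overlapped between genotypes. *Flt1* (chr5:147561604-147726011, minus strand) was at 16.0, 19.5, and 19.8 CPM in WT and at 16.1, 15.5, and 17.6 CPM in *Plxnb1-/-* replicates 1, 2, and 3. WT replicate 1 lay within the *Plxnb1-/-* range, and the log2 fold change was -0.17 (SE 0.09, 95% interval -0.37 to 0.04, edgeR adjusted p = 0.448). *Flt4* (chr11:49609263-49652739, plus strand) was at 9.47, 7.69, and 9.87 CPM in WT and at 9.55, 8.01, and 6.74 CPM in *Plxnb1-/-* replicates 1, 2, and 3. Only *Plxnb1-/-* replicate 3 was below all WT cultures, and the log2 fold change was -0.15 (SE 0.14, 95% interval -0.47 to 0.16, edgeR adjusted p = 0.653).

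*Kdr* (chr5:75932827-75978458, minus strand), the receptor through which VEGF-A drives endothelial growth, had the lowest level of all members. It was at 3.16, 4.01, and 2.94 CPM in WT and at 3.03, 2.80, and 2.16 CPM in *Plxnb1-/-* replicates 1, 2, and 3, with between 150 and 237 counts per library. The highest and lowest cultures were again WT replicate 2 and *Plxnb1-/-* replicate 3, and *Plxnb1-/-* replicate 1 was above WT replicate 3. The log2 fold change was -0.33 (SE 0.16, 95% interval -0.70 to 0.04, edgeR adjusted p = 0.404), which is of the size of that of *Pgf* with a wider error.

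The co-receptors *Nrp1* and *Nrp2*, which bind VEGFs and class 3 semaphorins, were far more abundant than the receptor kinases. *Nrp1* lay between 308 and 318 CPM in all cultures, and its 95% interval of the log2 fold change, -0.10 to 0.07, was the narrowest of the 16 genes. *Nrp2* was at 83.7, 84.1, and 81.8 CPM in WT and at 78.2, 79.4, and 68.8 CPM in *Plxnb1-/-* replicates 1, 2, and 3. The genotypes did not overlap for *Nrp2*, and the log2 fold change was -0.14 (SE 0.06, edgeR adjusted p = 0.339).

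Of the angiopoietins, *Angpt2* (chr8:18690263-18741562, minus strand) went the other way from *Vegfa*. It was at 12.4, 11.6, and 12.4 CPM in WT and at 13.7, 14.7, and 16.4 CPM in *Plxnb1-/-* replicates 1, 2, and 3. Every *Plxnb1-/-* culture was above every WT culture, and WT values were within 1 CPM of each other. The mean was 12.1 ± 0.435 against 14.9 ± 1.38 CPM (SD, n = 3 each), a fitted fold of 1.23 and a log2 fold change of 0.30 (SE 0.08, 95% interval 0.12 to 0.47). Its p before adjustment, 0.00431, was the smallest of all members, but the adjusted p was 0.273 with edgeR and 0.0551 with DESeq2, so neither tool called it.

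*Angpt1* (chr15:42424723-42676977, minus strand), the agonist of TEK, was at 27.6, 24.4, and 25.6 CPM in WT and at 28.8, 28.9, and 25.4 CPM in *Plxnb1-/-* replicates 1, 2, and 3. The genotypes overlapped, with a log2 fold change of 0.10 (SE 0.07, 95% interval -0.06 to 0.25, edgeR adjusted p = 0.562). *Gm17473*, on the opposite strand, overlaps 14.2% of the exon bases of *Angpt1* and had between 121 and 195 counts itself. The strand setting of the counting is not given in the sources used here, so the split of reads between these genes is uncertain. *Angpt4*, a further ligand of TEK, was at 3.81, 5.42, and 4.28 CPM in WT and at 3.57, 4.03, and 3.22 CPM in *Plxnb1-/-* replicates 1, 2, and 3, with a log2 fold change of -0.32 (SE 0.15, edgeR adjusted p = 0.379).

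The receptors of the angiopoietins had the lowest mean levels per kb of the 16 ligands and receptors in both genotypes, though above the floor of 3 counts. *Tek* was at 0.469, 0.495, and 0.692 CPM in WT and at 0.997, 0.731, and 0.779 CPM in *Plxnb1-/-* replicates 1, 2, and 3, from 29 to 78 counts. The *Plxnb1-/-* cultures were all higher, with a log2 fold change of 0.59, but the 95% interval was wide at 0.08 to 1.11 (edgeR adjusted p = 0.324). *Tie1*, the orphan partner of TEK, was at 0.766, 1.18, and 0.522 CPM in WT and at 0.409, 0.662, and 0.389 CPM in *Plxnb1-/-* replicates 1, 2, and 3, from 27 to 69 counts. The genotypes overlapped, with a log2 fold change of -0.74 (SE 0.34, edgeR adjusted p = 0.373). *Ptprb*, the phosphatase that restrains TEK, lay between 2.51 and 2.65 CPM in *Plxnb1-/-* and between 2.66 and 3.60 CPM in WT cultures, with a log2 fold change of -0.21 (SE 0.14, edgeR adjusted p = 0.531).

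**Figure D3:**
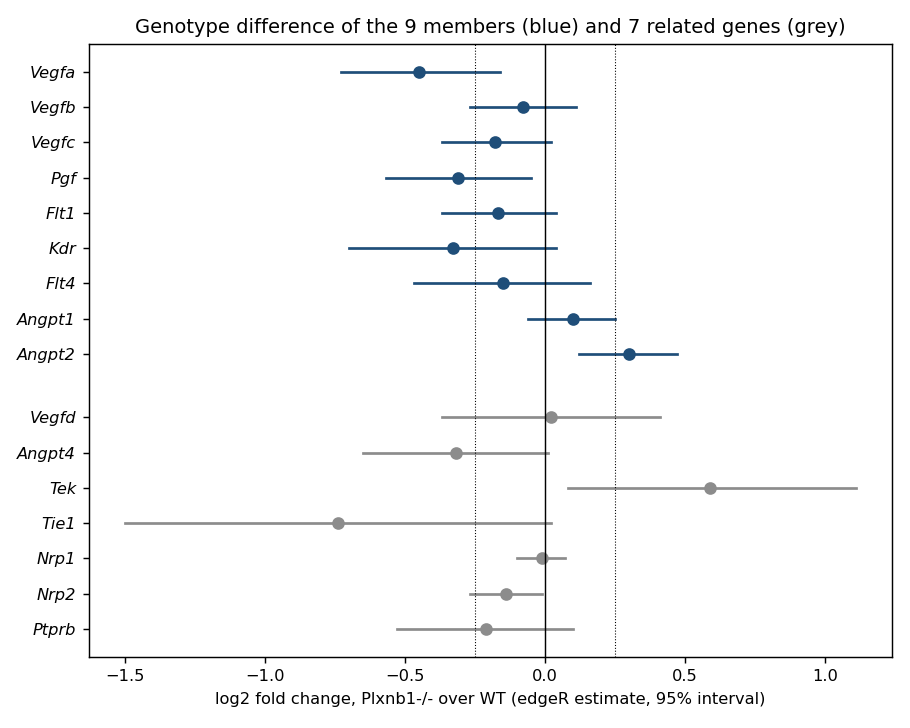
Log2 fold change of *Plxnb1-/-* over WT with its 95% interval from edgeR for the 9 members (blue) and 7 related genes (grey), with dotted lines at the size needed for a call, 0.25 either way. Before adjustment for the number of genes, the intervals of the members *Vegfa*, *Pgf*, and *Angpt2* and of the related genes *Tek* and *Nrp2* leave out 0, and those of *Tek* and *Tie1* are the widest.

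Calls needed an adjusted p under 0.05 together with a log2 fold change beyond 0.25 in either direction. Of the 9 members, edgeR called 0, against 0.0358% of all tested genes (8 of 22318). Even *Plxnb1* was called in only 9 of 18 alternative settings, so a member that was not called is not shown to be unchanged. DESeq2 called 1, *Vegfa*, against 1.5% of the genes it tested. edgeR with no filter on low counts also called 1, *Vegfa* again, against 0.949% of the genes it then tested. Before adjustment, 3 members had a p below 0.05 (*Vegfa*, *Pgf*, and *Angpt2*), against 13.7% of all tested genes. The genotypes did not overlap for the same 3 members, against 19.7% of all tested genes (10.4% lower and 9.3% higher in *Plxnb1-/-* cultures). The members were picked with results of these data known, so these counts are a description only. In all, 7 members were lower and 2 higher in *Plxnb1-/-* cultures, with a median log2 fold change of -0.17, while 48.5% of all tested genes were lower with a median of 0.0. None of the 7 related genes was called by edgeR or DESeq2, which gave no adjusted p for *Tek* and *Tie1*, and 2 (*Tek* and *Nrp2*) had an unadjusted edgeR p below 0.05.

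Ratios of ligands within the same libraries were compared for 4 pairs by exact permutation of the genotypes (two-sided), where 3 against 3 cannot go below a p of 0.1. The log2 ratio of *Vegfa* over *Pgf* was 4.56, 4.70, and 4.59 in WT and 4.46, 4.54, and 4.43 in *Plxnb1-/-* replicates 1, 2, and 3. It did not overlap between genotypes and differed by -0.14, with the smallest possible p of 0.1 (0.4 after adjustment over the 4 pairs). The ratio of *Vegfa* over *Vegfb* was 3.94 ± 0.30 in WT and 3.56 ± 0.36 in *Plxnb1-/-* cultures on the log2 scale, a difference of -0.37 (exact permutation p = 0.4). That of *Vegfa* over *Vegfc* differed by -0.28 (exact permutation p = 0.4). The log2 ratio of *Angpt1* over *Angpt2* was 1.15, 1.07, and 1.05 in WT and 1.07, 0.97, and 0.63 in *Plxnb1-/-* replicates 1, 2, and 3, a difference of -0.20 (exact permutation p = 0.3). A test of this size could not have passed the threshold, so it does not show whether ligands of a family changed unequally.

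Culture by culture, part of the members varied together. Around the mean of the 6 cultures on the log2 scale, *Vegfa* was 0.45 above in WT replicate 2 and 0.52 below in *Plxnb1-/-* replicate 3. *Kdr* was 0.43 above and 0.45 below in the same cultures, and *Pgf* 0.30 above and 0.40 below. *Angpt2* ran against them, 0.21 below in WT replicate 2 and 0.29 above in *Plxnb1-/-* replicate 3. Over the 6 cultures, which share library and genotype, Pearson's r of log2 CPM with *Vegfa* was 0.99 for *Pgf*, 0.97 for *Kdr*, and -0.95 for *Angpt2*. For the other 5 members it lay between -0.23 (*Vegfb*) and 0.52 (*Vegfc*). These coefficients describe 6 points that the genotypes and a pair of extreme cultures spread out.

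Markers of other cell types also varied between cultures, and the sums for fibroblasts, mural cells, and blood endothelium were highest in WT replicate 2. In *Plxnb1-/-* replicate 3, where *Vegfa* was lowest, these sums were 0.14, 0.11, and 0.12 below the mean of the 6 cultures on the log2 scale. The summed level of the 8 fibroblast markers was between 11188 and 14331 CPM in WT and between 10164 and 10636 CPM in *Plxnb1-/-* cultures. *Col1a1* and *Col3a1* made up most of this sum, and the study counts *Col1a1* among matrix genes reduced in *Plxnb1-/-* SCs. By fold change 7 of the 8 were lower and 1 higher, and without WT replicate 2 and *Plxnb1-/-* replicate 3 it was 5 and 3. With all 6 cultures, 4 of 8 markers were lower without overlap. Of these, *Col1a1* had a mean of 6219 ± 763 CPM in WT and 5058 ± 164 CPM in *Plxnb1-/-* cultures (SD, n = 3 each), and *Col3a1* one of 5298 ± 736 and 4508 ± 150 CPM. The 10 SC markers summed to between 2639 and 3145 CPM in WT and to between 3189 and 3598 CPM in *Plxnb1-/-* cultures, and 4 of 10 were higher without overlap. edgeR called 0 of them, 8 SC markers (all higher) and 4 fibroblast markers (all lower) had an unadjusted p below 0.05, and DESeq2 called 1, *Col1a1* (adjusted p = 0.0258). Over all tested genes, 10.4% were lower and 9.3% higher without overlap, and 13.7% had an unadjusted edgeR p below 0.05.

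Blood endothelium, the cell type in which KDR, FLT1, TIE1, and TEK are best known, was represented by 14 markers, of which 12 were lower in *Plxnb1-/-* cultures and 2 higher, with a median log2 fold change of -0.47. Without both extreme cultures, WT replicate 2 and *Plxnb1-/-* replicate 3, it was 10 and 4 with a median of -0.16. edgeR called 0 of the 14, and DESeq2 called 1, *Esam*. An unadjusted edgeR p below 0.05 was found for 5 (1 of them higher), against 13.7% of all tested genes. The list includes *Tie1* and *Tek* from the related genes described above, so it is not separate from them. *Tek* was the higher marker with such a p, and *Tie1* was among the lower markers. The sum of the 14 markers was 94.5 to 129 CPM in WT and 94.9 to 101 CPM in *Plxnb1-/-* cultures, and WT replicate 2 had the highest. *Cdh5* (51.6 to 68.0 CPM) and *Eng* (16.3 to 25.9 CPM) made up most of it. *Pecam1*, a defining marker, was at 1.80, 3.72, and 1.91 CPM in WT and at 1.56, 2.03, and 1.08 CPM in *Plxnb1-/-* replicates 1, 2, and 3. *Cldn5* was at 0.376 CPM at most and had no more than 3 counts in some libraries. Of the lymphatic markers, *Ccl21a* was at 0 counts in all 6 libraries, and *Lyve1* was between 1.76 and 2.84 CPM. *Flt4* is itself on that list and carries most of its sum. Whether these cell types had a part in the differences of *Vegfa*, *Pgf*, *Kdr*, and *Angpt2* was not tested.

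The remaining lists were mixed in direction for mural cells and one-sided for macrophages, neurons, and satellite glia. The 9 mural cell markers, led by *Pdgfrb* and *Cspg4*, summed to 1064 to 1337 CPM in WT and to 1043 to 1088 CPM in *Plxnb1-/-* cultures, with 1 lower and 0 higher without overlap. By fold change, 6 mural cell markers were higher and 3 lower, although the sum, which *Pdgfrb* and *Cspg4* dominate, was lower on average. Without both extreme cultures 2 were higher and 7 lower. The 8 macrophage markers, led by *Csf1r* and *Cd68*, summed to 30.3 to 33.8 CPM in WT and to 34.9 to 40.0 CPM in *Plxnb1-/-* cultures, with 8 of 8 higher by fold change and 3 without overlap, and DESeq2 called 1 of them, *Cx3cr1* (adjusted p = 0.0497). The 7 neuron markers, led by *Prph* and *Avil*, summed to 18.1 to 22.9 CPM in WT and to 21.9 to 35.4 CPM in *Plxnb1-/-* cultures, with 7 of 7 higher by fold change and the highest sum in replicate 3. Their median log2 fold change was 0.40, and without both extreme cultures it was 0.10 with 6 higher and 1 lower. The macrophage and satellite glia markers were then still all higher. The 3 satellite glia markers, led by *Kcnj10* and *Glul*, summed to 762 to 883 CPM in WT and to 906 to 933 CPM in *Plxnb1-/-* cultures, with 3 of 3 higher by fold change. edgeR called 0 genes of these 4 lists, and 3 macrophage, 2 mural cell, 1 satellite glia, and 0 neuron markers had an unadjusted p below 0.05. The share with such a p was 13.7% of all tested genes, of which 10.4% were lower and 9.3% higher without overlap. The mural cell count of 1 of 9 lower was close to that share.

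**Figure D4:**
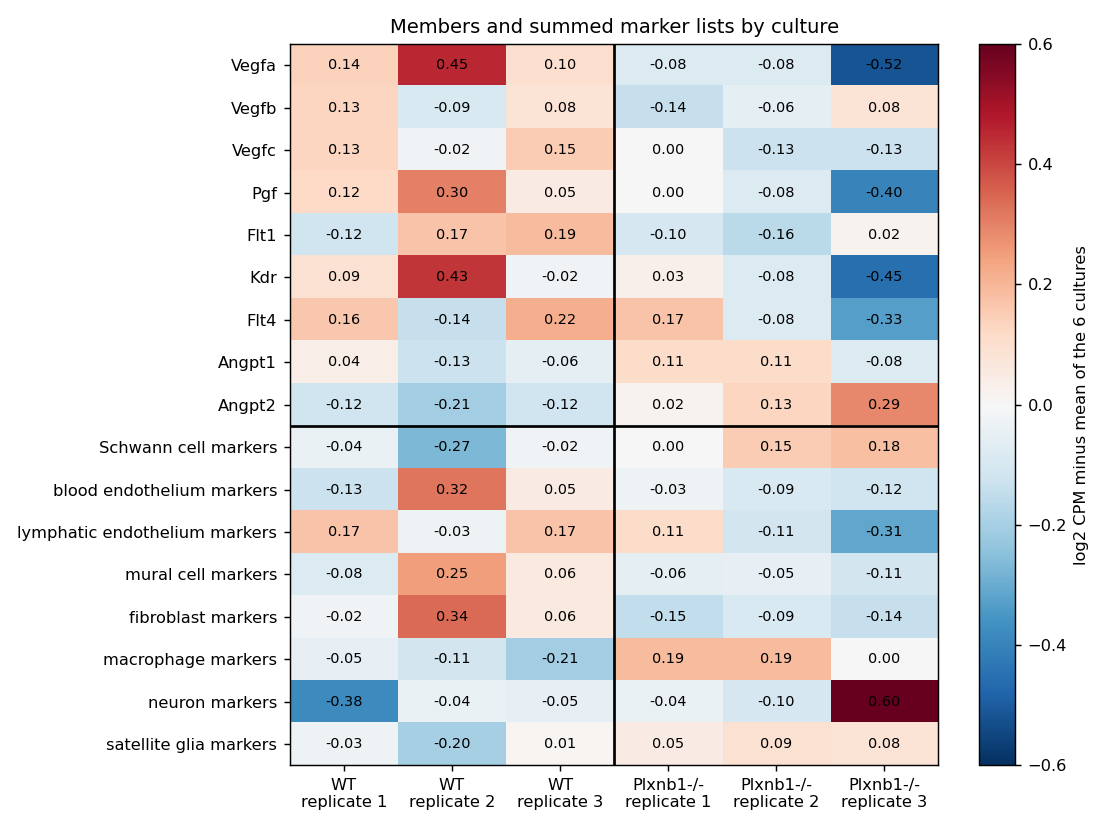
Log2 CPM of each member, and log2 of the summed CPM of each marker list, minus the mean of the 6 cultures, with the value in each cell. *Vegfa*, *Pgf*, and *Kdr* are highest in WT replicate 2 and lowest in *Plxnb1-/-* replicate 3, *Angpt2* is the reverse, and WT replicate 2 also has the lowest SC and the highest fibroblast, mural cell, and blood endothelium sums.

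Values without the pair of extreme cultures, a choice made after seeing the data, were closer to 0 for the genes that varied most. The pair held the highest WT and the lowest *Plxnb1-/-* value of *Vegfa*, *Pgf*, and *Kdr*, and the reverse for *Angpt2*. Leaving it out had to bring their fold changes closer to 0, so this is no test of them. The same applies to any other gene with its extremes in this pair. Leaving out WT replicate 2 and *Plxnb1-/-* replicate 3 together gave a log2 fold change of -0.19 for *Vegfa* (edgeR adjusted p = 0.435), -0.12 for *Pgf*, and -0.06 for *Kdr*. For *Angpt2* it gave 0.20. *Vegfb*, *Vegfc*, *Flt1*, *Flt4*, and *Angpt1* were then at -0.20, -0.20, -0.18, -0.13, and 0.12. The 7 members that were lower and the 2 that were higher were the same genes, with a median of -0.13.

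**Figure D5:**
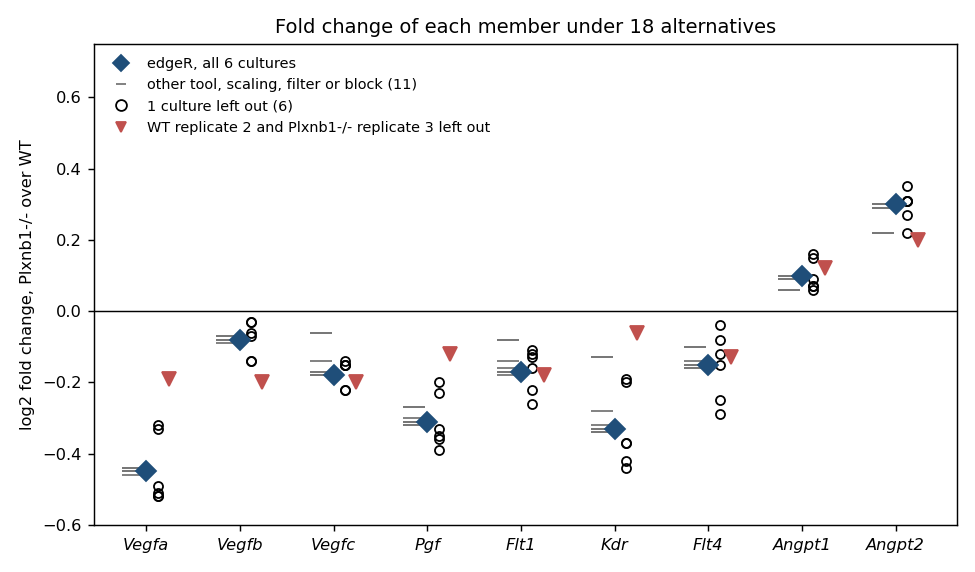
Log2 fold change of each member over the 18 alternatives, with the value from all 6 cultures as a diamond, other tools, scalings, filters, or a replicate term as dashes, 1 culture left out as open circles, and both extreme cultures left out as a red triangle. All points of a member lie on the same side of 0, and the triangle of *Vegfa*, at -0.19, lies closest to 0 of its points. The cultures left out held its highest WT and lowest *Plxnb1-/-* value, so a shift toward 0 was fixed in advance.

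The genes whose pattern over the 6 cultures was most like that of *Vegfa* were sought among 10154 genes outside the members with a mean of at least 10 CPM. By Pearson's r of log2 CPM they were *Timm17a* (0.997), *Atxn10* (0.996), *Smoc1* (0.993), *Cr1l* (0.992), and *Eif3l* (0.992). Their own fold changes were much smaller than that of *Vegfa* for all but *Smoc1*, a secreted calcium-binding matrix protein. *Smoc1* was at 81.2, 100, and 82.3 CPM in WT and at 74.8, 73.8, and 60.9 CPM in *Plxnb1-/-* replicates 1, 2, and 3 (log2 fold change -0.33, edgeR adjusted p = 0.284). The other 4 had log2 fold changes between -0.13 and -0.06.

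Other genes of the pathway were described in fixed lists, and edgeR called 0 genes in each. Their counts stand beside 13.7% of all tested genes with an unadjusted edgeR p below 0.05 and 1.5% called by DESeq2. The factors that switch on *Vegfa* in low oxygen showed no common direction, with 6 of 10 HIF genes and regulators higher, 4 lower, and a median log2 fold change of 0.03. DESeq2 called 0 of them, and 1 in each direction had an unadjusted edgeR p below 0.05. *Hif1a*, the oxygen-regulated subunit, was at 160, 186, and 163 CPM in WT and at 158, 146, and 154 CPM in *Plxnb1-/-* replicates 1, 2, and 3. The genotypes did not overlap for *Hif1a*, with a log2 fold change of -0.16 (SE 0.06, edgeR adjusted p = 0.339). *Epas1*, which codes for HIF-2α, had a log2 fold change of 0.12 (edgeR adjusted p = 0.528), and the partner *Arnt2* one of 0.25 (edgeR adjusted p = 0.348).

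Of 17 HIF target genes other than *Vegfa*, 8 were higher and 9 lower with a median of -0.01, and *Pgk1* changed sign under both other scalings. DESeq2 called 0 of them, and 5 had an unadjusted edgeR p below 0.05, of which 2 were higher. *Hk2*, a hexokinase that opens glycolysis, was at 108, 148, and 119 CPM in WT and at 106, 98.3, and 91.0 CPM in *Plxnb1-/-* replicates 1, 2, and 3 (log2 fold change -0.34, edgeR adjusted p = 0.289). *P4ha2*, a collagen prolyl hydroxylase, had a log2 fold change of -0.23 (edgeR adjusted p = 0.363). *Adm*, the vasodilator adrenomedullin, was on the other side at 0.56 (SE 0.25, edgeR adjusted p = 0.365) but at only 1.25 to 3.42 CPM.

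Downstream of the receptors, 13 of 30 tested signal transduction genes were higher and 17 lower, with a median of -0.01, and 7 had an unadjusted edgeR p below 0.05, of which 2 were higher. Without both extreme cultures 16 were higher and 14 lower. *Mapkapk3*, a kinase of the p38 stress pathway, was at 19.0, 10.7, and 17.6 CPM in WT and at 6.64, 6.44, and 6.52 CPM in *Plxnb1-/-* replicates 1, 2, and 3. DESeq2 called it (log2 fold change -1.27, adjusted p = 3.72e-10) and edgeR did not (adjusted p = 0.113), although edgeR called it with no filter on low counts (adjusted p = 0.000231). Without WT replicate 2 and *Plxnb1-/-* replicate 3, edgeR gave a log2 fold change of -1.48 (adjusted p = 0.000141). WT replicate 2 was the lowest WT culture for *Mapkapk3*, so a larger difference was fixed in advance and is no test of it. *Mapkapk3* lies 1.81 Mb from *Plxnb1* on chromosome 9, and whether its position has a part in its lower level was not tested. *Plcg1*, the phospholipase that KDR activates, had a log2 fold change of -0.19 (edgeR adjusted p = 0.299), and *Prkcb* one of -0.29 (edgeR adjusted p = 0.469).

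Genes that VEGF induces in endothelium, a list that includes the members *Flt1*, *Kdr*, and *Angpt2*, were lower in 6 and higher in 4 of 10 cases, with a median of -0.24. DESeq2 called 3 of them, and 5 had an unadjusted edgeR p below 0.05, of which 2 were higher. *Esm1*, a proteoglycan secreted by endothelial tip cells, was at 20.4, 26.8, and 19.6 CPM in WT and at 14.3, 14.2, and 12.3 CPM in *Plxnb1-/-* replicates 1, 2, and 3. Its log2 fold change was -0.71 (SE 0.12), with an adjusted p of 0.168 with edgeR and 7.69e-06 with DESeq2. Without both extreme cultures it was -0.48 (edgeR adjusted p = 0.0737). *Plaur*, the urokinase receptor, averaged 62.6 ± 3.01 CPM in WT against 50.7 ± 3.73 in *Plxnb1-/-* cultures (SD, n = 3 each), a log2 fold change of -0.30 that DESeq2 called at an adjusted p of 0.00702. The third, named after its values were seen, was the immediate early gene *Nr4a1*, which was higher by 0.30 (DESeq2 adjusted p = 0.0443).

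Extracellular inhibitors of angiogenesis were lower in 6 and higher in 4 of 10 cases, with a median of -0.02, and 3, all lower, had an unadjusted edgeR p below 0.05. *Thbs2*, the secreted inhibitor thrombospondin 2, had a mean of 3090 ± 414 CPM in WT and 2486 ± 114 CPM in *Plxnb1-/-* cultures (SD, n = 3 each). Its log2 fold change of -0.31 was called by DESeq2 (adjusted p = 0.0296) and not by edgeR (adjusted p = 0.273). *Thbs1*, its relative, had a log2 fold change of -0.36 (SE 0.14, edgeR adjusted p = 0.331) with WT replicate 2 the highest at 3669 CPM. *Serpinf1*, pigment epithelium-derived factor, had one of -0.22 (edgeR adjusted p = 0.290).

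Angiopoietin-like proteins share the fold of angiopoietins but do not bind TEK. Of 6 tested, 2 were higher and 4 lower with a median of -0.15, and without both extreme cultures 4 were higher and 2 lower with a median of 0.10. DESeq2 called 0 of them, and 1 had an unadjusted edgeR p below 0.05. *Angptl2*, a secreted factor tied to inflammation, was the most abundant, at 746, 643, and 720 CPM in WT and at 781, 849, and 868 CPM in *Plxnb1-/-* replicates 1, 2, and 3. The genotypes did not overlap, and its log2 fold change of 0.24 was below the size needed for a call (adjusted p = 0.273 with edgeR and 0.0358 with DESeq2). *Angptl4*, a lipase inhibitor and HIF target, had a log2 fold change of -0.18 (edgeR adjusted p = 0.451), and *Angptl6* one of -0.13 (edgeR adjusted p = 0.755).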

How the data were processed

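RNA-seq of 3 WT and 3 *Plxnb1-/-* SC cultures was used. The authors trimmed reads (Trim Galore 0.6.5), aligned them to mm10 with Bowtie2 2.4.1, which does not span introns, removed duplicates with SAMtools 1.10, and counted reads on GENCODE exons with featureCounts; the deposited counts are not normalized. The deposited FPKM were found to use the gene span as length (99.5% of genes within 1%), so they served only as an alternative. Version-free identifiers gave symbols for 55141 of 55401 genes.

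A minimum of 2 counts in 5 libraries was required, and genes were tested with edgeR 4.0.16 in R 4.3.3 (TMM, quasi-likelihood, genotype only, Benjamini-Hochberg over all). SEs came from the F statistic. DESeq2 (1.42.0 here), the tool that the study names for differential expression, was run as an alternative. Other alternatives were limma 3.58.1 on log2(FPKM + 0.1), other scalings and filters, a replicate block, and leaving out cultures. The fits were tested on simulated data. For the ratios, 0.05 CPM was added to each value.

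Members and lists were chosen with earlier results of these data known. Named genes are the members, the related ligands and receptors, *Plxnb1*, the 3 largest fold changes of each pathway list (mean of at least 1 CPM), the 2 most abundant of each marker list (those of SCs are not reported here), and the 5 genes most like *Vegfa*; *Pecam1*, *Cldn5*, *Ccl21a*, *Nr4a1*, *Pgk1*, and *Cx3cr1* were added after their values were seen. Replicates are separate samples per the labels; p-values measure the spread between them, which may be technical if cultures shared animals. No batch is given in the sources used here.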

Additional observations from a re-analysis of the deposited data

How the results depend on the processing

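Over 18 alternatives for each member, 162 values in all, 160 stayed on the same side of the threshold and 0 reversed. The exceptions were both for *Vegfa* at -0.45, called by DESeq2 (adjusted p = 0.0194) and by edgeR with no filter on low counts (adjusted p = 0.0348), where 1 member was called each. Leaving out 1 culture gave between -0.52 and -0.32 for *Vegfa*, -0.39 and -0.20 for *Pgf*, -0.44 and -0.19 for *Kdr*, and 0.22 and 0.35 for *Angpt2*, with 0 members called each time. The ratios without 1 culture lay between -0.49 and -0.17 for *Vegfa* over *Vegfb*, -0.38 and -0.12 over *Vegfc*, and -0.17 and -0.10 over *Pgf*, and between -0.29 and -0.07 for *Angpt1* over *Angpt2*. The number of all genes called was 8 and became 335 with DESeq2, 296 with no filter, 3 with limma on log2(FPKM + 0.1) or log2(FPKM + 0.01), and 5 with a replicate block. Leaving out 1 culture gave between 4 and 25, with 25 without WT replicate 2, 5 without *Plxnb1-/-* replicate 1, and 4 without *Plxnb1-/-* replicate 2 or 3. Without WT replicate 2 and *Plxnb1-/-* replicate 3 it was 23. The cause was not tested.

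The sources used here do not say whether the replicate numbers pair the samples. Correlations of deviations from the genotype mean were -0.0218, 0.00782, and 0.0653 for same-numbered samples. For the others they were between -0.053 and 0.0485. With 3 replicates this cannot show whether a pairing existed. With the block, 0 members were called, and the adjusted p was 0.171 for *Vegfa* and 0.224 for *Angpt2*. Depth limits *Tie1* and *Tek* most of the 16 ligands and receptors, with as few as 27 counts in a library for *Tie1*, and *Kdr* most of the 9 members, with as few as 150.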

Other observations

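*Apln*, a vessel growth peptide that VEGF induces, was named after its values were seen. It was at 1.06, 1.88, and 0.932 CPM in WT and at 0.562, 0.552, and 0.361 CPM in *Plxnb1-/-* replicates 1, 2, and 3, with a log2 fold change of -1.37 (SE 0.31, edgeR adjusted p = 0.266). With no filter on low counts its adjusted p was 0.0211, and without WT replicate 2 and *Plxnb1-/-* replicate 3 its log2 fold change was -0.83. *Esam*, an endothelial junction protein also chosen by its values, was at 3.86, 3.40, and 3.18 CPM in WT and at 2.03, 2.26, and 2.52 CPM in *Plxnb1-/-* replicates 1, 2, and 3. Its log2 fold change was -0.61 (SE 0.13), with an adjusted p of 0.261 with edgeR and 0.012 with DESeq2. It was -0.71 without the same pair, which held its highest *Plxnb1-/-* value, so this shift is no test of *Esam*. Without the pair, *Pecam1* was at -0.04 and *Vwf* at 0.12.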
